A study of Rattus norvegicus with 3 samples.

Results

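The 6 genes described here, Foxi1, Foxi2, Ascl3, Cftr, Bsnd and Atp6v1b1, are known as genes of ionocytes, and were followed through the epithelial cells of the rat thymus. They are 6 of the 34034 genes in a single-cell RNA library of CD45-negative thymic stromal cells from Lewis rats, an inbred strain, aged 8 weeks. A library of thymocytes and a spatial section from the same kind of animal belong to the same study; the thymocyte library served here only for background values, and the section was not used here. Each group had 1 sample, so no test was made and no p-value is given. The stated ranges are 95% intervals for counting error only, and the labels do not say how many animals a library pools.

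The genes were selected on their measured values in this library, so their high levels in some epithelial cells are a description. They were read over every cell that carried one of the authors' 13 labels of thymic epithelium or lay in one of the authors' clusters TEC-a to TEC-e, which together held 2372 of 13226 annotated stromal cells. Of these cells, 2295 carried an epithelial label and 2338 lay in the clusters. The median depth was 11311 unique molecular identifiers (UMIs, each 1 captured RNA molecule) per epithelial cell. Levels are UMIs per 1000000 UMIs of a group (CPM). They were not divided by gene length, so each gene is compared only with itself across cells.

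Ionocytes are rare epithelial cells, first known from fish gills and amphibian skin and later found in the airway, that move salt and acid across an epithelium. Their counterparts in the kidney and inner ear are the intercalated cells and the cells that set the ionic makeup of the endolymph. Foxi1, a forkhead transcription factor, is the best known regulator of the type, and the chloride channel of cystic fibrosis is one of its airway hallmarks. In the thymus, medullary epithelial cells can take on programmes of peripheral cell types; such cells are called mimetic cells, and ionocyte-like ones are among the types described in the mouse.

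The forkhead family binds short DNA motifs, so the bases before the starts of the 6 genes were searched for the motif GTAAACA, its close form GCAAACA, the form ATAAACA and the form ACAAACA, on both strands. All 6 genes matched the RefSeq promoter table of the GRCr8 build, and 2 of the 6 held a match in the 250 bases before the start. Among all 33469 promoters of that table, 15.5% held at least 1 of the 4 motifs in a window of that length. The promoters of Foxi2 and Atp6v1b1, which hold a match, and of Bsnd, which was most often found in the same cells as Foxi1 and holds none, are shown with the match in capitals.
Foxi2: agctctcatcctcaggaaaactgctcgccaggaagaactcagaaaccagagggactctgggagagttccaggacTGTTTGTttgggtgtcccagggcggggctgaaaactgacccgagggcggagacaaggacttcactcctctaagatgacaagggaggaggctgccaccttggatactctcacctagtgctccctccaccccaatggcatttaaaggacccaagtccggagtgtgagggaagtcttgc
Bsnd: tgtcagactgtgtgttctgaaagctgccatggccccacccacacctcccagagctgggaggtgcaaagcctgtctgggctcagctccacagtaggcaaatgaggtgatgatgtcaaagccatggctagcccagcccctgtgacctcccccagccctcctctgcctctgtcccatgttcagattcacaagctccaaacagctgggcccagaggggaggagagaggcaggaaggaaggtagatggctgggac
Atp6v1b1: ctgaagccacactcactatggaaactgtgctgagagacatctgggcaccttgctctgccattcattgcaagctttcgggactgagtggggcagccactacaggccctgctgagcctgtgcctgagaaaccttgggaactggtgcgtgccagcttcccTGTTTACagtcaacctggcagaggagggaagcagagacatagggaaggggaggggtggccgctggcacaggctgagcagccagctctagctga
The Foxi2 sequence is chr1:199652453-199652702 on the plus strand, the Bsnd sequence is chr5:126489390-126489639 on the minus strand, and the Atp6v1b1 sequence is chr4:117781194-117781443 on the plus strand. The match in Foxi2 is ACAAACA read on the opposite strand, and it begins 176 bases before the start. The match in Atp6v1b1 is GTAAACA read on the opposite strand, and it begins 93 bases before the start. These matches describe letters in a window and do not show binding.

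For 5 of the 6 genes, most epithelial UMIs lay in 1 cluster, TEC-e, which held 133 of the 2372 epithelial cells, or 5.61%. By cells, this held for 4 of them, while 100 of the 338 cells with Cftr, or 29.6%, lay in TEC-e. TEC-e may be called ionocyte-like, since the 11 genes of the ionocyte marker list summed to 4836 CPM there against 46.8 CPM in the other epithelial cells. All 11 had UMIs in both groups, and the list includes the 6 genes that chose the description. Of the 5 genes with most epithelial UMIs in TEC-e, 4 were close to background outside it, while Cftr was also found at a lower level in other epithelial cells. Atp6v1b1 was rare inside and outside the cluster.

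Foxi1 had 1080 UMIs in TEC-e, a level of 514 CPM (484 to 545), and was found in 127 of 133 cells, a share of 95.5% (90.4 to 98.3). The other 2239 epithelial cells held 8 UMIs of Foxi1 in 3 cells, a share of 0.134%. Fibroblasts, which should lack the gene and show what free RNA gives, had a share of 0.134% over 8216 cells. The share outside TEC-e was thus at the level of fibroblasts, at a median depth of 11062 UMIs per cell against 9006.5 in fibroblasts and 15277 in TEC-e.

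Foxi2, a second gene of the same forkhead subfamily, had 687 UMIs in TEC-e, or 327 CPM (303 to 352), and was found in 115 cells, a share of 86.5%. Outside the cluster it had 7 UMIs in 7 cells, a share of 0.313% (0.126 to 0.643), against 0.122% in fibroblasts (0.0584 to 0.224). These intervals overlap.

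Ascl3, a helix-loop-helix transcription factor known from salivary duct precursors and airway ionocytes, was at the lower end of what the library could detect. It had 68 UMIs in 51 cells of TEC-e, a level of 32.4 CPM (25.1 to 41.0) and a share of 38.3%, and no cell held more than 3 UMIs. A single UMI was found in the other 2239 epithelial cells, in a cell labelled mTEC1. At this depth a cell of TEC-e without an Ascl3 UMI is not shown to lack the gene.

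Bsnd encodes barttin, an accessory subunit of chloride channels known from the kidney and inner ear. It had 1277 UMIs in TEC-e, or 608 CPM (575 to 642), and was found in 127 cells, a share of 95.5%. Outside the cluster there were 5 UMIs in 4 cells, a share of 0.179% against 0.134% in fibroblasts. Of these 4 cells, 3 carried the label mTEC2, the medullary cells that hold most Aire.

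Cftr, the chloride and bicarbonate channel mutated in cystic fibrosis, had 587 UMIs in TEC-e, or 279 CPM (257 to 303), and was found in 100 cells, a share of 75.2%. Unlike the genes above, it was found in 238 of the 2239 other epithelial cells, a share of 10.6% (9.38 to 12.0) at 14.8 CPM. Fibroblasts had a share of 0.17%, and the share outside TEC-e lay above it by more than counting error. The cluster held 99.3% of the epithelial UMIs of Foxi1 and 99.6% of those of Bsnd, but 59.1% of those of Cftr.

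Atp6v1b1, the B1 subunit of the proton pump that is known from kidney intercalated cells and the inner ear, had 9 UMIs in TEC-e, or 4.28 CPM (1.96 to 8.13), and was found in 5 cells, a share of 3.76% (1.23 to 8.56). It had 14 UMIs in 13 of the other epithelial cells, a share of 0.581% (0.309 to 0.991), against 0.0487% in fibroblasts (0.0133 to 0.125), so these intervals do not overlap. In the thymocyte library, which had fewer UMIs per cell, the share was 0.222% (0.134 to 0.347). That interval overlaps the one of the other epithelial cells. Of its 18 positive epithelial cells, 5 lay in TEC-e and 7 were labelled mTEC2.

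**Figure D1:**
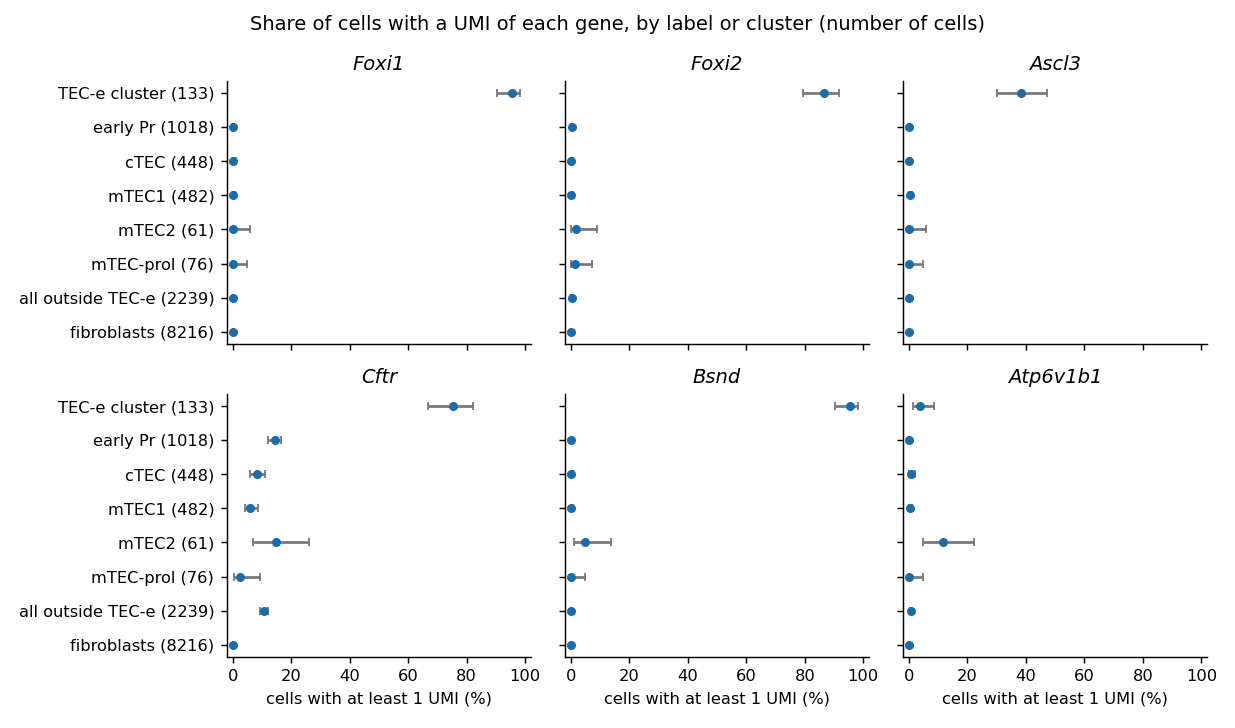
Share of cells with at least 1 UMI of each of the 6 genes (horizontal axis, percent) in the TEC-e cluster, in 5 epithelial labels, in all epithelial cells outside TEC-e and in fibroblasts, with 95% exact binomial intervals and the number of cells in brackets. Foxi1, Foxi2 and Bsnd are near 0% outside TEC-e, Cftr is at 10.6% there, and Atp6v1b1 is at 11.5% in mTEC2 cells against 3.76% in TEC-e.

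Depth differed between groups, so each cell was also thinned to 5000 UMIs, which left out 2 of the 133 cells of TEC-e and 226 of the 2239 others. Thinned shares in TEC-e were 89.3% for Foxi1, 72.5% for Foxi2, 13.7% for Ascl3, 55.7% for Cftr, 82.4% for Bsnd and 3.05% for Atp6v1b1. Outside TEC-e they were 0.149%, 0.199%, 0%, 5.51%, 0.0994% and 0.199% in the same order, where 0% means that 0 of 2013 cells had a UMI. At equal depth, each gene was thus still found in a larger share of TEC-e than of the pool of other epithelial cells. For Atp6v1b1, the thinned share was 6.12% (1.28 to 16.9) in mTEC2 cells, and this interval overlaps that of TEC-e (0.838 to 7.63).

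In the thymocyte library, 8546 annotated cells with a median of 3994 UMIs held 4 UMIs of Foxi1, 9 of Cftr and 22 of Atp6v1b1, and 0 of Foxi2, Ascl3 and Bsnd. The 2 libraries shared 38 barcodes, and none of them was a cell of TEC-e.

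The authors' projected labels divided TEC-e in another way than the 6 genes did. Of its 133 cells, 49 carried the label mimetic (goblet), 36 aaTEC1, 30 mimetic (muscle), 8 mimetic (neuroendo), 6 mimetic (tuft) and 3 aaTEC2. The label mimetic (ionocyte) was carried by 1 cell in the library, which lay in TEC-e. That cell had 18050 UMIs, with 1 UMI of Foxi1, 16 of Bsnd and 4 of Cftr.

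The genes were found across these labels. Foxi1 stood at 511 CPM (462 to 564) in the goblet-labelled cells of TEC-e, 531 CPM (472 to 594) in aaTEC1 cells and 444 CPM (383 to 511) in muscle-labelled cells, and these intervals overlap. It stood at 940 CPM (758 to 1153) in the 6 tuft-labelled cells, which held from 3 to 26 UMIs each. Bsnd stood at 661 CPM (605 to 721), 684 CPM (617 to 755) and 480 CPM (417 to 550) in the same 3 labels, so the muscle-labelled cells were lower by more than counting error. Foxi2 stood at 337, 313 and 275 CPM in these labels and at 639 CPM (505 to 797) in the 8 neuroendo-labelled cells. In the 3 largest labels, each of the 3 genes was found in most cells.

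Cftr also differed between labels. It stood at 240 CPM (207 to 277) in goblet-labelled, 297 CPM (254 to 345) in aaTEC1 and 196 CPM (157 to 243) in muscle-labelled cells of TEC-e, and at 778 CPM (630 to 951) in the 8 neuroendo-labelled cells. In these 8 cells, 1 cell held 42 of the 95 Cftr UMIs. Ascl3 was found in 22 of 49 goblet-labelled cells, 44.9% (30.7 to 59.8), and in 8 of 36 aaTEC1 cells, 22.2% (10.1 to 39.2). In muscle-labelled cells it was found in 16 of 30, 53.3% (34.3 to 71.7). These Ascl3 intervals overlap.

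**Figure D2:**
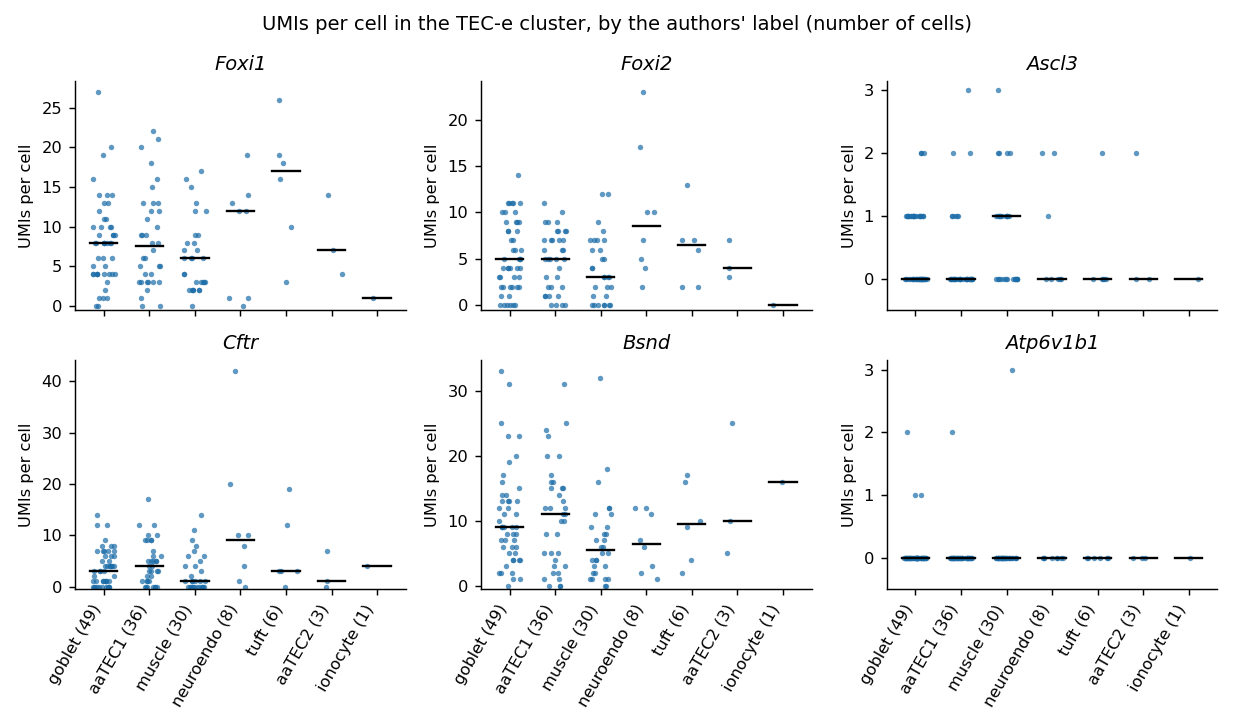
UMIs per cell (vertical axis) of the 6 genes in each of the 133 cells of TEC-e, by the authors' label with the number of cells in brackets; bars are medians and the horizontal spread of points has no meaning. Foxi1 and Bsnd are present in cells of every label, and Ascl3 stays between 0 and 3 UMIs per cell.

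The goblet- and neuroendo-labelled cells of TEC-e held few UMIs of the types that their labels name. For aaTEC1 and aaTEC2 no marker list was made. The 8 neuroendo-labelled cells held 1 UMI of 10 neuroendocrine markers. The 49 goblet-labelled cells held 10 UMIs of 13 goblet and secretory markers, with 10 of the 13 at 0, against 3633 UMIs of the 11 ionocyte markers. The 6 tuft-labelled cells held 29 UMIs of 12 tuft markers, all of them Dclk1, a kinase that is used as a tuft marker but is not limited to tuft cells. Dclk1 was found in the other labels of TEC-e as well, with 323 UMIs in the goblet-labelled cells. Over TEC-e the tuft list was at 411 CPM, against 119 CPM in the other epithelial cells. Of its 863 UMIs in TEC-e, 856 were Dclk1. In the same groups, the muscle list was at 138 against 126 CPM. The goblet and secretory list was at 18.1 against 63.3 CPM, and the neuroendocrine list at 9.04 against 59.2 CPM.

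Cells of the tuft and muscle labels outside TEC-e held more RNA of their own types. The 19 tuft-labelled cells there held 803 UMIs of the tuft list, led by Gnat3, the taste G protein, with 11 of 12 markers present, and 30 UMIs of the ionocyte list. The 5 muscle-labelled cells there held 725 UMIs of 10 muscle markers, led by Myog, the muscle regulator, while the 30 in TEC-e held 40, of which 26 were Actc1. As a level this was 8234 against 92.4 CPM of the muscle list. The goblet label had few goblet markers outside TEC-e too, with 8 UMIs in 6 cells and 11 of the 13 markers at 0, and the 1 neuroendo-labelled cell there had 0 UMIs of its list. Groups this small describe only these cells.

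Taken over whole labels, inside and outside TEC-e, Foxi1 was highest in aaTEC1 at 479 CPM (427 to 536) and in the goblet label at 462 CPM (417 to 510), whose intervals overlap. The muscle label at 369 CPM (318 to 425) and the tuft label at 349 CPM (283 to 425) came next and could not be told apart, and aaTEC2 followed at 47.6 CPM (31.1 to 69.7). This order moves with the share of each label that lay in TEC-e, 6 of 25 tuft-labelled, 30 of 35 muscle-labelled and 3 of 29 aaTEC2 cells. Within TEC-e, Foxi1 stood at 940 CPM in the 6 tuft-labelled cells and at 444 CPM in the 30 muscle-labelled ones, and 6 cells are too few to order. Bsnd ran in nearly the same order, from 617 CPM (557 to 682) in aaTEC1 and 597 CPM (546 to 651) in the goblet label to 399 CPM in the muscle label, 206 CPM in the tuft label and 73.2 CPM in aaTEC2. In aaTEC2, 3 of 29 cells lay in TEC-e, and 1 cell gave 25 of the 40 Bsnd UMIs.

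Foxi2 stood at 304 CPM (269 to 344) in the goblet label, 282 CPM (242 to 327) in aaTEC1, 228 CPM in the muscle label and 135 CPM (95.7 to 186) in the tuft label. In the tuft label, 28% of cells had Foxi1, against 85.5% in the goblet label, so its level rested on few cells with many UMIs. Labels with under 20 cells were not ordered.

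By cluster, the 188 cells of TEC-a held 7 UMIs of Foxi1 in 2 cells, the 1388 of TEC-b held 1, and the 255 of TEC-c and the 374 of TEC-d held 0. Cftr was at 22.1 CPM (15.3 to 31.0) in TEC-a, 17.3 CPM (15.3 to 19.6) in TEC-b, 10.5 CPM (7.62 to 14.1) in TEC-c and 9.91 CPM (7.56 to 12.8) in TEC-d. TEC-a and TEC-b could not be told apart, nor could TEC-c and TEC-d, and TEC-b lay above TEC-d by more than counting error.

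The labels with over 20 cells outside TEC-e were then ordered by Cftr. The 61 mTEC2 cells were highest at 51.4 CPM (37.5 to 68.8), but 1 cell held 21 of their 45 UMIs. The label early Pr had 220 UMIs in 146 of 1018 cells, at 18.1 CPM (15.8 to 20.7) and 14.3% of cells. It was followed by cTEC, the cortical cells, at 11.2 CPM (8.48 to 14.6) with 37 of 448 cells, and by mTEC1 at 6.22 CPM (4.44 to 8.47) with 29 of 482 cells.

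The intervals of early Pr and cTEC do not overlap, and those of cTEC and mTEC1 nearly meet. The label mTEC-prol, at 5.12 CPM (2.06 to 10.6), could not be told from mTEC1. After thinning to 5000 UMIs, Cftr was found in 7.21% (5.67 to 9.01) of early Pr, 4.38% (2.57 to 6.92) of cTEC and 2.68% (1.35 to 4.75) of mTEC1 cells. At equal depth the intervals of neighbours in this order overlap, and those of early Pr and mTEC1 do not.

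For the other 5 genes, the labels early Pr, cTEC, mTEC1 and mTEC-prol held few UMIs. There was 1 UMI of Foxi1, in a cTEC, and 1 of Ascl3, in an mTEC1 cell. Foxi2 had 3 UMIs in early Pr and 1 in mTEC-prol, Atp6v1b1 had 3 in cTEC and 1 in mTEC1, and Bsnd had 0. In early Pr, 0 of 1018 cells had a UMI of Foxi1, which allows a share of such cells of up to 0.295% by the limit of 3 counts, or up to 0.362% by the exact 95% interval.

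The 3 Foxi1 cells outside TEC-e were looked at one by one. A cTEC had 1 UMI, an aaTEC2 cell of TEC-a had 1 UMI together with 1 of Foxi2, and a tuft-labelled cell of TEC-a had 6 UMIs and no other member. The 6 UMIs of that last cell are within the range of TEC-e, where the median was 8 per cell. Conversely, 6 cells of TEC-e had no Foxi1 UMI, and all 6 had Cftr and Bsnd.

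The genes were detected together in the same cells. Of the 2372 epithelial cells, 1980 had a UMI of none of the 6 genes, 254 of 1, and 138 of 2 or more. Of these 138 cells, 131 lay in TEC-e, a share of 94.9% (89.8 to 97.9). In TEC-e, 4 cells had 2 genes, 29 had 3, 62 had 4 and 36 had 5, and no cell had all 6.

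Outside TEC-e, 252 cells had 1 gene, 232 of them Cftr alone, and 7 cells had 2. No cell outside TEC-e had 3 or more, which is 0 of 2239 and allows a share of up to 0.134% by the limit of 3 counts, or up to 0.165% by the exact 95% interval. The clusters are the authors', and the genes they were made from are not given in the sources used here. That the cluster gathers such cells is therefore no independent finding.

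**Figure D3:**
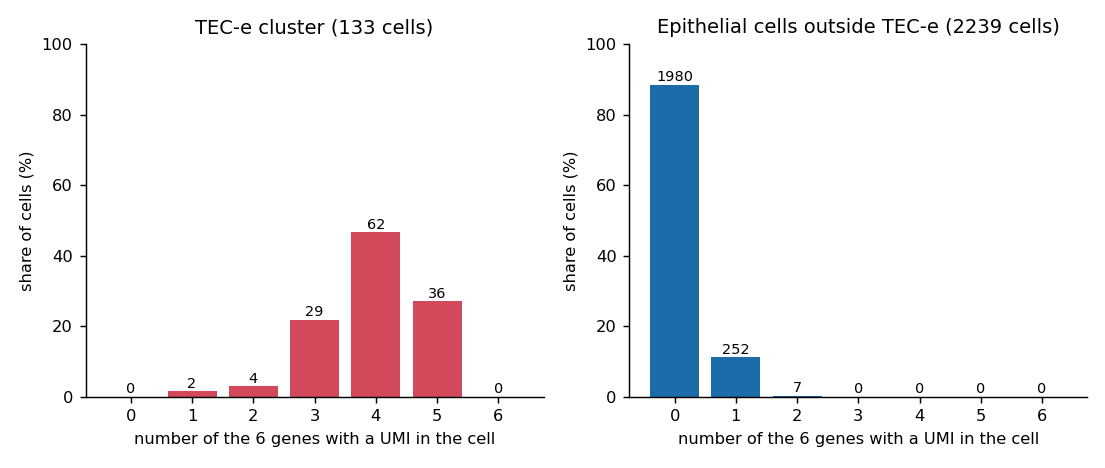
Share of cells (vertical axis, percent) by the number of the 6 genes with at least 1 UMI (horizontal axis), in TEC-e and in the other epithelial cells; numbers above the bars are cells. In TEC-e 127 of 133 cells have 3 or more genes, and outside it 0 of 2239 do.

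The most frequent combination in TEC-e was Foxi1, Foxi2, Cftr and Bsnd without the other 2 genes, in 46 cells. In 33 cells the same 4 were joined by Ascl3. A further 15 cells had Foxi1, Foxi2 and Bsnd, and 11 had these 3 with Ascl3. All 4 of these combinations hold both forkhead genes and barttin, and they differ in Cftr and Ascl3.

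Over all epithelial cells, 130 had Foxi1. Of these, 121 had Bsnd (93.1%), 112 Foxi2 (86.2%), 94 Cftr (72.3%), 50 Ascl3 (38.5%) and 4 Atp6v1b1 (3.08%). Among the 2242 cells without a Foxi1 UMI the shares were 0.446%, 0.446%, 10.9%, 0.0892% and 0.624%. Read the other way, 94 of the 338 Cftr cells had Foxi1, or 27.8%, while 0 of the 238 Cftr cells outside TEC-e did.

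Within TEC-e, the cells that had a gene did not have more of the others in a uniform way. Spearman's rho over the 133 cells was 0.32 for Foxi1 with Bsnd and between -0.15 and 0.18 for the other 14 pairs. The pairs were read on the CPM of each cell. They share the library and the depth of each cell, whose rho with the UMIs of the genes ran from 0.01 for Atp6v1b1 to 0.30 for Cftr. Values like these in sparse counts do not show whether the genes are related.

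Cells of TEC-e with and without an Ascl3 UMI were compared as a description. Foxi1 was at 548 CPM (498 to 601) in the 51 cells with Ascl3 and at 492 CPM (454 to 532) in the 82 without, and these intervals overlap. Bsnd was at 522 CPM (474 to 574) with Ascl3 and at 663 CPM (619 to 709) without, intervals that do not overlap. They cover counting error only and not the spread between cells, and rho of Ascl3 with Bsnd over the 133 cells was -0.06. The mix of labels in the 2 groups was not compared. The 5 Atp6v1b1 cells of TEC-e all lacked an Ascl3 UMI and all had Cftr and Bsnd.

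Per cell of TEC-e, Foxi1 ran from 0 to 27 UMIs with a median of 8, Foxi2 from 0 to 23 with a median of 5, Bsnd from 0 to 33 with a median of 9, and Cftr from 0 to 42 with a median of 3. The most loaded cell held 2.5% of all Foxi1 UMIs of the cluster and 7.16% of those of Cftr. No single cell carried the level of these 4 genes. Of the 9 Atp6v1b1 UMIs, in contrast, 3 came from 1 cell.

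Some cells of TEC-e also carried RNA of fibroblasts. In 16 of the 133 cells the 7 genes of a mesenchymal list, such as Dcn and Col3a1, had 67 or more UMIs, and in the other 117 they had at most 35; the median of fibroblasts was 291. The limit of 50 was chosen after these values were seen. The 16 cells had a median depth of 20706 UMIs against 14839 in the 117, and 11 of them carried the goblet label. The cell labelled ionocyte was also among them.

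In the 117 cells with little mesenchymal RNA, Foxi1 was at 551 CPM (516 to 586), Cftr at 311 CPM and Bsnd at 640 CPM. In the 16 cells they were at 332 CPM (275 to 398), 122 CPM and 446 CPM. All 3 genes were thus as high or higher without the cells rich in mesenchymal RNA. No doublet caller was run. Outside TEC-e, 327 epithelial cells, or 14.6%, passed the same limit, against 12.0% of TEC-e.

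The other genes of the ionocyte programme were compared between the 138 epithelial cells with 2 or more of the 6 genes and the 1980 cells with none. The 138 cells held 2207977 UMIs, 15298 in the median cell, and the 1980 held 24024450, 10905.5 in the median cell. Genes with at least 20 UMIs over both groups together were kept, 16219 in all, and a gene was counted as higher or lower from a 3-fold ratio of CPM. Over all of them 5.2% were at least 3-fold higher in the 138 cells and 9.29% at least 3-fold lower, with a median ratio of 0.86. Detection of the 6 genes chose these groups, so the genes below are described and not tested, and each list's counts stand beside these shares.

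Of the 7 ionocyte transcription factors measured beside the 6 genes, 5 had enough UMIs, of which 3 were higher, 0 lower and 2 between, with a median ratio of 9.02. Tfcp2l1, a regulator of kidney collecting duct cells, was at 676 against 26.5 CPM, a ratio of 25.5 (23.2 to 28.0). Dmrt2 was at 847 against 89.2 CPM and Esrrg, an orphan nuclear receptor known from intercalated cells, at 502 against 55.7 CPM. Mitf, at a ratio of 2.89, and Grhl2, at 0.891, were between the limits. Foxi3, the remaining forkhead of the subfamily, had 0 UMIs in the 138 cells.

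Of 18 channels and transporters, 11 were higher, 1 lower and 6 between, with a median ratio of 6.92. Most of the list was thus higher, a larger share than the 5.2% over all genes.

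Slc12a2, the sodium, potassium and chloride cotransporter that loads epithelial cells with chloride, was at 2078 against 41.9 CPM, 49.6-fold higher. Kcnma1, a large-conductance potassium channel, was at 2630 against 81.3 CPM. The 3 subunits of the epithelial sodium channel were all higher, Scnn1a at a ratio of 21.2, Scnn1b at 66.2 and Scnn1g at 52.1. Of the sodium pump, Atp1b1 was 9.65-fold and Atp1b3 4.19-fold higher.

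Fxyd2, a regulator of that pump, was 41.6-fold higher, but found in 23.2% of the cells, with 20.9% of its UMIs in 1 cell. Ano10 was 3.37-fold higher. The calcium-activated chloride channel Ano1 was the gene of the list that was lower, at 2.72 against 19.4 CPM. The potassium channels Kcnj16 and Kcnj1 had 0 UMIs in the 138 cells.

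Of 12 acid-base and intercalated cell genes, 5 were higher, 1 lower and 6 between, with a median ratio of 1.12, or 1.64 where genes under 3 UMIs are set to 3. Those higher were Slc4a11, a membrane transporter of the bicarbonate transporter family, with 247 UMIs against 5, Hepacam2 at a ratio of 132, Kit, the stem cell factor receptor, at 37.4, P2ry14, a receptor for nucleotide sugars, at 31.7, and Adgrf5 at 23.0. Some genes by which kidney intercalated cells move acid and base had no UMI. Car2 and Car12, carbonic anhydrases, Rhcg, an ammonia transporter, and Slc26a7 all had 0 UMIs in the 138 cells, and Slc4a1 had 0 in them and 1 in the 1980. A count of 0 allows up to 1.36 CPM in the 138 cells. In the 1980 cells, Slc26a7 was at 1.12 and Rhcg at 1.25 CPM, so their counts of 0 do not show a lower level. Car2 at 2.75 and Car12 at 2.50 CPM lay above that limit in the 1980 cells.

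Slc26a4, the pendrin anion exchanger, had 11 UMIs in 7 of the 138 cells against 4 UMIs in the 1980, below the minimum of 20. Slc4a8 was lower, at 3.17 against 16.1 CPM.

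The proton pump is built from many subunits, of which some have forms used in most cells and others forms found in acid-secreting cells. Of the 5 forms of acid-secreting cells other than Atp6v1b1, 4 were higher, 0 lower and 1 between. Atp6v1g3 was at 1377 against 0.333 CPM, on 3041 against 8 UMIs, and in 81.2% of the 138 cells. Atp6v1c2 was at 166 against 3.46 CPM, 48.1-fold higher. Atp6v0d2 had 77 UMIs against 1, in 23.2% of the cells. Atp6v0a4 also passed at 3.81-fold, but 95.2% of its UMIs came from 1 cell.

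Atp6v1b1 was also higher in TEC-e than in the pool of all other epithelial cells, at 4.28 CPM (1.96 to 8.13) against 0.509 CPM (0.278 to 0.854). Only 5 cells of TEC-e had it, with 1 to 3 UMIs each. It was not highest in TEC-e, since the mTEC2 cells stood at 9.14 CPM (3.95 to 18.0), an interval that overlaps the one of TEC-e. Atp6v0a4 was at 0.476 CPM in TEC-e, so its count as higher came from a cell outside that cluster. The B2 form, Atp6v1b2, which most cells use, was at 50.3 against 25.0 CPM in the 2 groups, a ratio of 2.01 (1.63 to 2.47). Of the 17 widely used subunits and accessory genes, 6 were higher, 0 lower and 11 between, with a median ratio of 2.16. Those higher were Atp6v0b at 8.39-fold, Atp6v0c at 1572 against 262 CPM, Atp6v1h, Atp6v1a, Atp6v1d and Atp6v1e1, the last at 3.14-fold. All 17 ratios lay above 1, from 1.21 for Atp6v1c1 upward, and the intervals for Atp6v1c1 and Atp6v0a2 include 1.

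**Figure D4:**
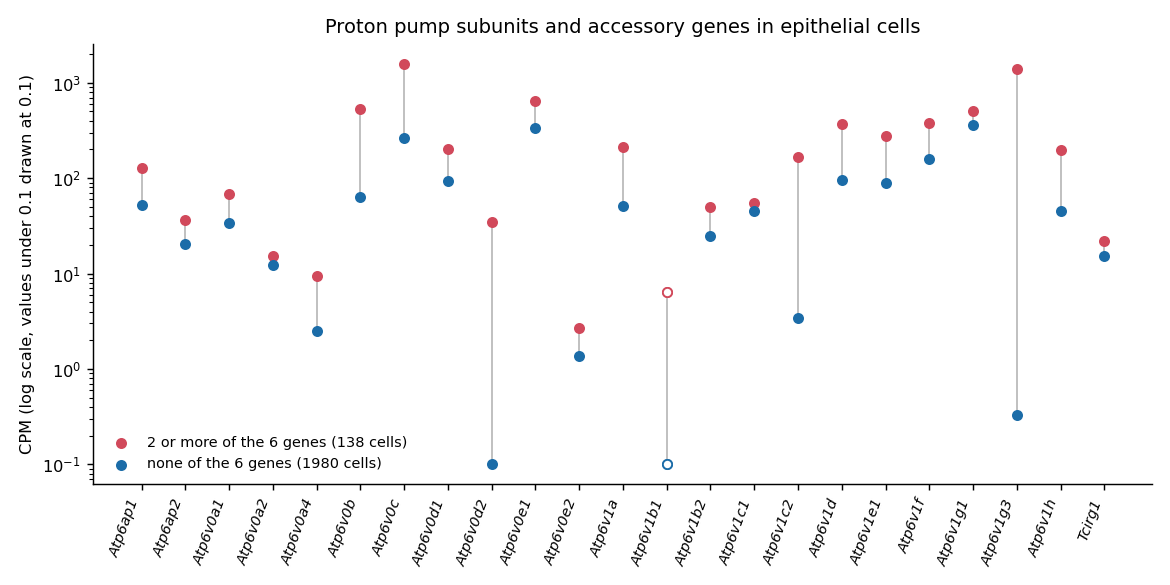
CPM (vertical axis, log scale) of each proton pump gene in the 138 epithelial cells with 2 or more of the 6 genes and in the 1980 with none; values under 0.1 CPM are drawn at 0.1, and Atp6v1b1 is drawn with open points because its detection helped to choose the groups. Atp6v1g3 lies at 1377 against 0.333 CPM, and Atp6v1b2 at 50.3 against 25.0.

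Notch signals are known to steer ionocytes and their neighbours in other epithelia. Of 12 Notch genes, 2 were higher, 2 lower and 8 between, with a median ratio of 0.649. The ligand Dll4 was at 28.1 against 5.33 CPM and the target Hey1 at 9.51 against 2.04 CPM, with 33.3% of the Hey1 UMIs in 1 cell. The ligands Jag2, at 14.5 against 80.8 CPM, and Dll1, at 3.62 against 31.2 CPM, were lower. The share of Notch genes that were higher, 2 of 12, rests on few genes beside the background of 5.2%.

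**Figure D5:**
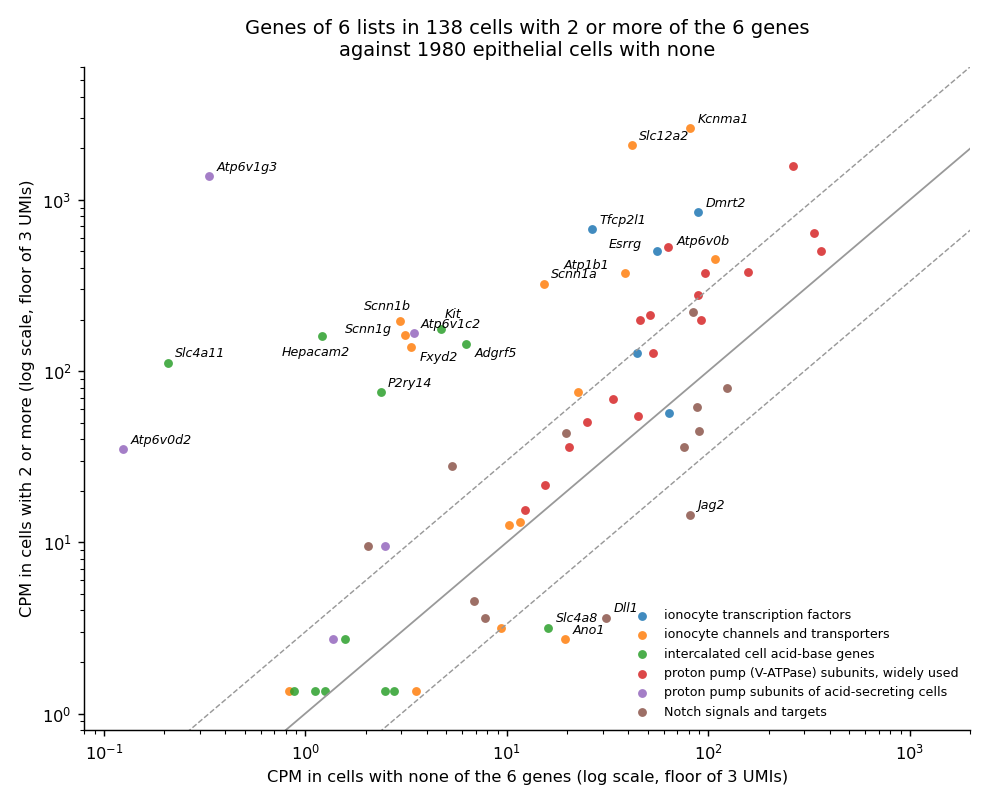
CPM of genes of 6 lists that had at least 20 UMIs and are reported here, in the 138 epithelial cells with 2 or more of the 6 genes (vertical axis, log scale) against the 1980 with none (horizontal axis, log scale), with each count raised to at least 3 UMIs; the solid line marks equal levels and dashed lines 3-fold differences. Slc4a11, Atp6v1g3 and Atp6v0d2 lie farthest above the line, and Ano1, Slc4a8, Dll1 and Jag2 below the lower dashed line.

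The 138 cells carried epithelial RNA, but less of the epithelial list than the cells with none of the 6 genes. Of its 9 markers, 1 was higher, 4 lower and 4 between, with a sum of 4675 against 9830 CPM. Of 6 cortical epithelial markers 0 were higher and 5 lower, and of 8 medullary ones 0 were higher and 3 lower. Over all genes, 5.2% were higher and 9.29% lower. Epcam was at 1717 against 1146 CPM, Krt8 at 1289 against 840 CPM and Krt18 at 1409 against 687 CPM. The keratins of basal and medullary cells were low, Krt5 at 86.5 against 2810 CPM and Krt14 at 60.2 against 3527 CPM, with 41.4% and 44.4% of their UMIs in the 138 cells from 1 cell. Foxn1, the regulator of thymic epithelium, was at 3.17 against 31.1 CPM. Thymocyte markers summed to 18.1 against 34.2 CPM and the mesenchymal list to 3721 against 4469 CPM, both lower than in the cells with none of the 6 genes. By cells neither was lower. A thymocyte marker was found in 18.1% against 17.9% of cells, and the median cell held 7 against 3 UMIs of the mesenchymal list. Depth was higher in the 138 cells.

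A few genes known from other mimetic types were higher as well. Of 11 tuft markers with enough UMIs, 1 was higher and 4 lower, and of 5 neuroendocrine markers 0 were higher and 2 lower. Of 5 ciliated markers 3 were higher and 1 lower, and of 9 muscle markers 2 were higher and 1 lower. Over all genes, 5.2% were higher and 9.29% lower. Dclk1 was 5.68-fold higher, while 7 of the 12 tuft markers, Gnat3 and Trpm5 among them, had 0 UMIs in the 138 cells. Foxj1, a regulator of motile cilia, was at 36.2 against 6.62 CPM and found in 32.6% of the cells. Actc1, a muscle actin, was at 71.6 against 0.791 CPM, while Ckm and Myl1 of the muscle list had 0 UMIs. Their part in the other differences was not tested.

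Which genes were most like Foxi1 was read from detection, by the phi coefficient between having a UMI of Foxi1 and having a UMI of another gene, over 2372 epithelial cells and 15875 genes found in at least 20 of them. Bsnd was first at 0.92, and Asgr1, Hspb7 and Wfdc10a at 0.91 and Lgals5 at 0.90 were also high. Asgr1 encodes a subunit of the hepatocyte asialoglycoprotein receptor, Hspb7 a small heat shock protein known from heart muscle, and Lgals5 a galectin. These 5 genes were found in 91.0% to 97.7% of the cells of TEC-e and in 0.179% to 0.893% of the others.

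For Ppp1r17, Foxi2, Ltbp2, Atp6v1g3, Stap1, Hepacam2, Dpp6 and Fa2h, phi ran from 0.89 to 0.81. Foxi2 was eighth in this order at 0.88, Ascl3 stood at place 56 with 0.60 and Cftr at place 152 with 0.40. Phi falls when a gene has few UMIs, as Ascl3 does, and when it is found outside the Foxi1 cells, as Cftr is. The points are cells of 1 library, and their depth is shared between genes.

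The mTEC2 cells were looked at for the genes that were not limited to TEC-e. Aire, the regulator that lets medullary cells express genes of other tissues, had a UMI in 40 of the 61 mTEC2 cells. All 7 mTEC2 cells with Atp6v1b1, all 3 with Bsnd and 7 of the 9 with Cftr were among these 40. The numbers are small, and the depth of cells with and without Aire was not compared.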

How the data were processed

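The data were single-cell libraries of CD45-negative thymic stromal cells and of thymocytes from Lewis rats, with 1 sample per group. The authors deposited UMI counts per gene and barcode with cluster and cell type annotations. The notes of the submitters name Cell Ranger 8.0.0, Seurat 5.3.0 and the build mRatBN7.2, without their roles. The authors deposited the percent of mitochondrial UMIs per cell, which was at most 5 in annotated cells. The cell type was the projected label or, where that was absent, the cluster's own name.

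UMIs were summed per group of cells and divided by the group's total. Intervals are exact Poisson for levels and Clopper-Pearson for shares, at 95%. A count of 0 was read as allowing up to 3 UMIs. Depth ran from 621 to 55374 UMIs per annotated stromal cell, with a median of 9087.5. Unthinned and thinned shares are both given, since depth differs between groups; thinning drew 5000 UMIs per cell without replacement, with random seed 7. The procedure was run on simulated data, where 200 of 200 changed genes were recovered. The planted changes were larger than the 3-fold limit, in genes with many UMIs, and the simulated cells varied by depth and counting error only. This recovery therefore checks the code and does not show how sure the calls in these data are. How well it recovers 3-fold differences in the cells of this library was not tested.

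The named genes were the 6 members, genes of the lists with at least 20 UMIs that differed by 3-fold or more, and the 15 most like Foxi1; other genes of the lists and markers that are named were chosen after their values were seen. The members, lists and markers were chosen with earlier results of these data known. A few genes that these rules name count in the totals but are not reported here. Promoter sequences are from RefSeq on GRCr8, a later build than that of the files, and no coordinates were carried between builds. No doublet caller was run, and whether doublets had been removed is not given in the sources used here. Barcodes without annotation stayed out of the comparisons. The section was not analysed here. Values were computed in Python 3.11.15 with pandas 2.3.3, NumPy 2.4.6 and SciPy 1.17.1, and figures drawn with matplotlib 3.10.9.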

Additional observations from a re-analysis of the deposited data

Results flagged for a closer look

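Stromal barcodes that the authors did not annotate, and that none of the comparisons use, also held the genes. These 2934 barcodes had a median of 1219.5 UMIs, and together they held 33 UMIs of Foxi1 in 15 barcodes, 17 of Foxi2 in 7, 47 of Bsnd in 13, 78 of Cftr in 41 and 5 of Atp6v1b1 in 3. Foxi1 was at 3.81 CPM there, against 0.139 CPM in fibroblasts and 514 CPM in TEC-e. Of these barcodes, 10 had 2 or more of the 6 genes, with a median of 5676.5 UMIs, and 3 of the 10 had more than 6999 genes, which is the highest number in any annotated cell.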

How the results depend on the processing

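No paired analysis was possible because a single library stood for every group. Of 764 recomputed values of 119 results, 648 stayed within counting error or within 1.5 times the count, and 116 did not. The values were levels, shares and counts, and ratios of single genes were not among them. With totals that leave out mitochondrial, ribosomal and haemoglobin genes, levels in TEC-e were 609.7 CPM for Foxi1, 387.8 for Foxi2, 331.4 for Cftr and 720.9 for Bsnd, and 2 channels were lower. The mean of the cells' CPM was 547 for Foxi1.

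With at least 2 UMIs asked for, shares in TEC-e were 90.23% for Foxi1, 11.28% for Ascl3, 60.15% for Cftr and 88.72% for Bsnd; 99.22% of cells with 2 or more of the genes lay in TEC-e, and of Foxi1 cells 12.4% had Ascl3 and 58.68% Cftr. Thinned to 5000 UMIs, shares in TEC-e were 89.31% for Foxi1, 72.52% for Foxi2, 13.74% for Ascl3, 55.73% for Cftr and 82.44% for Bsnd, and of Foxi1 cells 70% had Foxi2, 14.17% Ascl3, 53.33% Cftr and 80% Bsnd; 1 Notch gene was higher and 1002 of all genes were lower. Thinned to 2000 UMIs, shares were 54.55% for Foxi1, 43.18% for Foxi2, 6.818% for Ascl3, 35.61% for Cftr, 64.39% for Bsnd and 0.7576% for Atp6v1b1. At that depth 45 cells had 3 or more of the genes, 100% of those with 2 or more lay in TEC-e, and of Foxi1 cells 44.44% had Foxi2, 8.333% Ascl3, 36.11% Cftr and 66.67% Bsnd. Fewer UMIs per cell lower detection by construction.

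The following were chosen after seeing the data. In cells with under 50 mesenchymal UMIs, Foxi1 was at 550.5 CPM and Cftr at 311. With TEC-e set against all other epithelial cells, 2 channels and 2 acid-base genes were lower. With 1 library and no replicate, the spread between animals is not known, shares of Ascl3 and Atp6v1b1 are limited by depth, and groups of under 20 cells describe only those cells.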

Other observations

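Cftr was also found in a few cells whose label is not one of thymic epithelium. Some of them lay in the clusters TEC-a to TEC-e and are counted above among the 2372 epithelial cells, 46 of 48 cells with the label MEC and 1 cell with the label capEC. The label MEC had 9 UMIs of Cftr in 8 of 48 cells, a share of 16.7% (7.48 to 30.2) at 17.1 CPM, and no UMI of the other 5 genes. The label B cell had 8 UMIs of Cftr in 4 of 179 cells. The label capEC had 12 UMIs in 2 of 636 cells, of which 1 cell, in TEC-a, gave 10.

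Several genes that are not on the ionocyte lists were high in TEC-e. Coch, which encodes cochlin, a secreted protein of the inner ear, was at 4790 CPM in TEC-e and found in 96.2% of its cells and in 2.37% of the other epithelial cells. Lgals5, a galectin, was at 1818 CPM. Cd74, the invariant chain of antigen presentation, was at 621 CPM in the 138 cells with 2 or more of the 6 genes against 2469 CPM in the 1980 with none, and 50.8% of the UMIs in the 138 came from 1 cell.

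Ciliary and muscle genes were found in part of the 138 cells. Of 5 genes of the ciliated list with enough UMIs, 3 were higher and 1 lower. Over all genes, 5.2% were higher and 9.29% lower. Foxj1 was 5.48-fold and Rsph1 6.85-fold higher, while Tekt1, a protein of motile cilia, was at 1.36 against 4.91 CPM. Of 9 genes of the muscle list with enough UMIs, 2 were higher and 1 lower. Actc1 was 90.5-fold and Tnnt2 4.20-fold higher, with 28.6% of the Tnnt2 UMIs in 1 cell, and Myl1 was at 0 UMIs against 173. Among the keratinocyte-like markers, Krtdap and Spink5 were higher, but all 196 UMIs of Krtdap and 99.5% of those of Spink5 lay in 1 cell.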
